A study of Mus musculus with 4 samples.

Results

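Genes of the major histocompatibility complex (MHC) and of antigen presentation were followed across the left ventricle of young and aged mice, with and without ischemia/reperfusion (I/R). The members were every gene whose symbol starts with H2-, which are the mouse MHC genes and a few neighbors named with them, together with B2m, Cd74, Tap1, Tap2, Tapbp, Nlrc5, Ciita, Psmb8 and Psmb9. This gave 43 genes of the 32285 in the deposited matrices, and 31 of the 43 had at least 20 unique molecular identifiers (UMIs, each standing for 1 captured RNA molecule) over the 4 libraries. The 31 were 14 class I genes, 5 genes of class I peptide supply and loading, 9 class II genes, the 2 transcriptional regulators Nlrc5 and Ciita, and H2-Ke6, a steroid dehydrogenase gene (also named Hsd17b8) that carries an H2 symbol only because it lies in the complex. Over all genes, 17699 of the 32285 had at least 20 UMIs.

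Each of the 4 conditions was a single 10x Genomics 3′ library from C57BL/6J wild-type male mice. Young mice were 3 to 5 months old and aged mice 24 to 26 months old. Mice of the I/R groups had 45 min of ischemia by surgery on the left anterior descending artery and 24 h of reperfusion, whereas the control groups are called sham by the study and healthy without alteration in their labels. The labels name the RNA as nuclear and the study describes cell suspensions, and neither source used here gives the number of mice behind a library. With 1 library per condition no difference was tested. A difference between 2 libraries cannot be told apart from a difference between animals, surgeries or preparations, and in summed RNA fewer cells of a type cannot be told apart from less RNA per cell. Levels are UMIs per 1000000 UMIs of the library (CPM), summed over all deposited barcodes. Where 4 levels are given in a row, the young libraries come first, sham before I/R, and the aged libraries follow in the same way. Intervals are exact 95% intervals that cover counting error only.

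The sham libraries held 25836175 UMIs (young) and 41356670 UMIs (aged), and the I/R libraries 39673199 UMIs (young) and 66767829 UMIs (aged). They were spread over 91124 to 102883 barcodes, with a median of 244 to 675 UMIs in a barcode. Between 7.44% and 7.92% of the barcodes of a library also occurred in another library. The cardiomyocyte markers summed to between 65507 and 91764 CPM, and endothelial, fibroblast and macrophage markers were present in every library. Genes as a whole did not sit level between libraries. The median log2 ratio over all genes with at least 20 UMIs was -0.53 for young I/R over young sham and 0.48 for aged I/R over young I/R. It was 0.09 for aged I/R over aged sham and -0.14 for aged sham over young sham. A second scaling, which sets the median gene-wise ratio to no change, adds 0.51, -0.45, -0.09 and 0.15 to the log2 ratios of these comparisons in the same order, and its value is given beside the class sums, beside the counts it changes and beside a member's ratio where it turns the printed direction or ends a statement that libraries did not differ. Levels are given in CPM throughout, so their order over the libraries is that of the first scaling.

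MHC class I molecules pair a heavy chain (H2-K1, H2-D1 and the H2-Q, H2-T and H2-M genes) with the light chain B2m, and present peptides from the cell's own proteins on nearly every nucleated cell. The peptides are cut by the proteasome, into which interferon-induced subunits such as Psmb8 and Psmb9 can be built, and are carried into the endoplasmic reticulum by the transporter Tap1 and Tap2, where tapasin (Tapbp) helps to load them. Class II molecules (H2-Aa, H2-Ab1, H2-Eb1) present peptides from engulfed material and are made mainly by macrophages, dendritic cells and B cells. Cd74, the invariant chain, guides them to the compartment where H2-DM exchanges the peptide and H2-O restrains H2-DM. Nlrc5 and Ciita are the coactivators of class I and class II genes, and both act through a shared promoter module of X and Y boxes.

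Promoter stretches are shown for 6 members because the class I and class II genes are known for this shared module and because members of a class are set side by side in what follows. RefSeq windows (GRCm38.p6, 250 bases before to 50 after a start) were listed for 36 of the 43 members, counting only windows that were searched. Each line gives the bases just before a start on the gene's own strand, 5′ to 3′. Capitals mark the letters ACNGATG (core of the X box), TGACG (core of a CRE, the cyclic AMP response element that overlaps or follows the X box) and CCAAT (Y box), each on either strand, where N is any base. The motifs were chosen from general knowledge and after some of these windows had been seen.
H2-K1 (class I, chr17:34000348-34000497, minus strand): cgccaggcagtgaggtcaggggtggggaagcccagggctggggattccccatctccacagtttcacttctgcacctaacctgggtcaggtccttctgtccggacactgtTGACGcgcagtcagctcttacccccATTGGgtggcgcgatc
H2-Q7 (class I, chr17:35439005-35439154, plus strand): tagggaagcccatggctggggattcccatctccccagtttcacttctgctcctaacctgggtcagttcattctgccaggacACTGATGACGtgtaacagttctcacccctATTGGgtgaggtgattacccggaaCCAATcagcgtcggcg
H2-Q10 (class I, chr17:35469939-35470088, plus strand): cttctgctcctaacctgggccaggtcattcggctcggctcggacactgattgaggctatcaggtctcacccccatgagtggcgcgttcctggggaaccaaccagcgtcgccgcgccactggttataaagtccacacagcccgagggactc
B2m (class I light chain, chr2:122147537-122147685, plus strand): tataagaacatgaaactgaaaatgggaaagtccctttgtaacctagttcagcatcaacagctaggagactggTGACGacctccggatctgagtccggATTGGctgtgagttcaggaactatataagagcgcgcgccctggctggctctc
H2-Aa (class II, chr17:34287824-34287973, minus strand): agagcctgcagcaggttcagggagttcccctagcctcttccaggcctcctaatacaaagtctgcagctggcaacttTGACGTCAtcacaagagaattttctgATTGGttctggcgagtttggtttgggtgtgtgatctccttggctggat
H2-Eb1 (class II, chr17:34305717-34305866, plus strand): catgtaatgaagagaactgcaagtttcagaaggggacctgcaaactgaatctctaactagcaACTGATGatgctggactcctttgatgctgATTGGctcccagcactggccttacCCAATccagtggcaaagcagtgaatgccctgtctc

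In H2-Q7 the X box core and the CRE core overlapped, beginning 69 and 64 bases before the start, and a Y box on the opposite strand began 40 bases before it. H2-Eb1 had the X box core at 88 and the reversed Y box at 59 bases before the start, and H2-Aa had a palindromic pair of overlapping CRE cores at 74 and 71 followed by a reversed Y box at 48. B2m had the CRE core at 78 and the reversed Y box at 53 bases before the start, with an interferon-type element (AAANNGAAA) further out at 138. H2-Q10, printed for contrast, held none of the 3 marked motifs in its window, and neither did H2-T3. Whether the motifs of a gene go with its level was not tested. Among class II genes with at least 20 UMIs and a window, 5 of 7 held an X box or CRE core together with a Y box, and among such class I genes it was 9 of 13. Among such genes of peptide supply it was 2 of 4. Over all 32851 promoter windows 10.63% held this combination. This share counts single windows, whereas the members were counted as genes over any of their windows. Singly, ACNGATG was found in 9.85% of windows, TGACG in 20.8%, CCAAT in 37.4% and AAANNGAAA in 10.55%. A match here is a match of letters, and no binding was measured.

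Class I RNA was more abundant than class II RNA in every library, and in CPM both classes were highest in aged sham and lowest in young I/R, though under the gene-wise scaling class I was lowest in young sham. The 25 class I genes (heavy chains and B2m) summed in the sham libraries to 427 CPM (young, interval 419 to 435) and 971 CPM (aged, 962 to 981), and in the I/R libraries to 328 CPM (young, 323 to 334) and 715 CPM (aged, 709 to 722). The 10 class II genes, Cd74 included, summed to 115 CPM (111 to 119) and 322 CPM (316 to 327) in sham and to 63.1 CPM (60.6 to 65.6) and 144 CPM (141 to 147) after I/R. No pair of libraries overlapped in these intervals in either class. The 5 genes of peptide supply and loading had summed levels of 100.3, 60.0, 150.1 and 113 CPM, a narrower spread between libraries than that of class II.

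**Figure D1:**
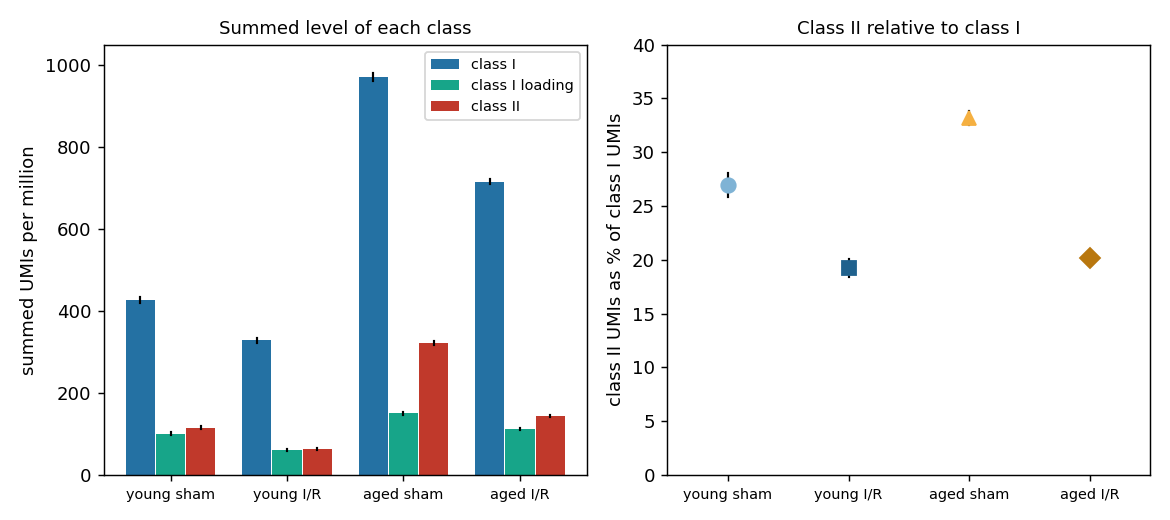
Summed level of class I, class I loading and class II genes in the 4 libraries as CPM (left, bars from 0), and class II UMIs as a percentage of class I UMIs (right, points). Black lines are exact 95% intervals for counting error. Aged sham has the tallest bars of class I (971) and class II (322), and class II stands at 33.1% of class I in aged sham against 19.2% in young I/R.

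Set against each other within a library, where no scaling between libraries enters, class II RNA was 26.9% of class I RNA in the young sham library and 33.1% in its aged counterpart, against 19.2% and 20.2% in the I/R libraries. The share was thus lower in the I/R library than in the sham library at both ages. On the log2 scale the I/R minus sham difference of this ratio was -0.49 in young (interval -0.57 to -0.40) and -0.72 in aged (-0.76 to -0.68). The aged minus young difference was 0.30 between the sham libraries (0.23 to 0.36), and 0.07 between the I/R libraries with an interval that reached just below 0 (-0.00028 to 0.14). Leaving B2m out of class I or Cd74 out of class II left aged sham highest and I/R below sham at both ages. The size of the differences changed. Without Cd74 the log2 ratio was -2.98 and -3.64 in young sham and I/R, and -2.68 and -3.30 in the aged pair. The I/R minus sham difference was then no longer larger in aged. Without B2m the values were -1.56 and -1.90 in young and -1.13 and -1.99 in aged, with aged I/R below young I/R.

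Between libraries, class I differed most by age. The log2 ratio of the class I sum was 1.19 for aged sham over young sham (interval 1.16 to 1.22) and 1.12 for aged I/R over young I/R (1.10 to 1.15). After I/R it was -0.38 relative to sham in young (-0.41 to -0.34) and -0.44 in aged mice (-0.46 to -0.42). The young I/R value turned to 0.13 under the gene-wise scaling, and the aged-over-young I/R value dropped to 0.67. Class II differed by age in the same direction, with 1.49 between sham libraries (1.43 to 1.54) and 1.19 between I/R libraries (1.13 to 1.26). After I/R the class II sum was lower by more than class I at both ages, at -0.87 in young (-0.94 to -0.79) and -1.16 in aged (-1.20 to -1.12). These remained below 0 under the gene-wise scaling, at -0.36 and -1.25, and the class II value between I/R libraries became 0.74.

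**Figure D2:**
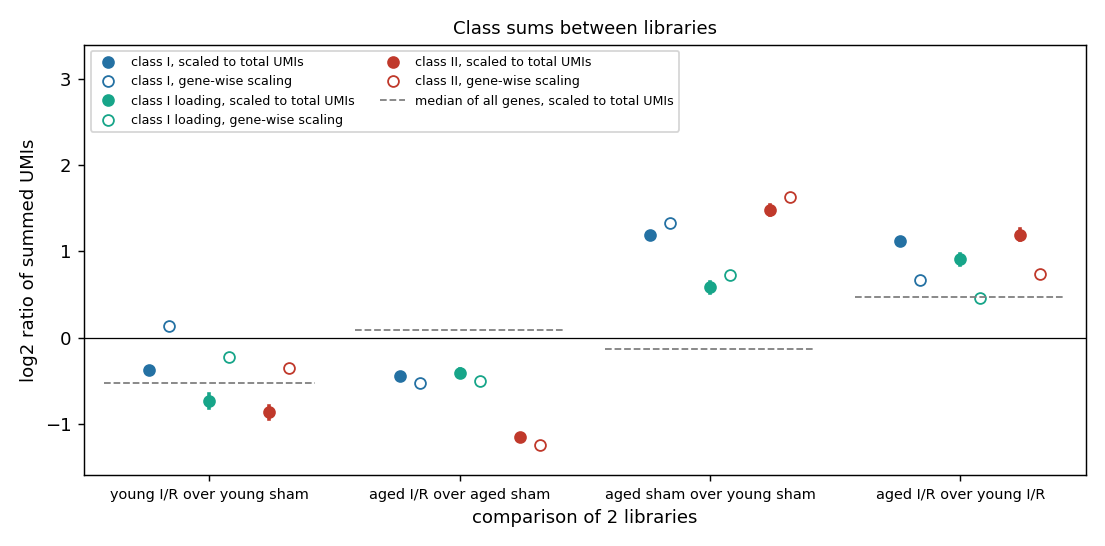
Log2 ratios of summed UMIs between 2 libraries (vertical axis) for class I, class I loading and class II in the 4 comparisons. Filled points are scaled to total UMIs with exact 95% counting intervals, open points use the gene-wise scaling, and the dashed line is the median of all genes. Class II lies below class I in both I/R comparisons and above it between the sham libraries, and the class I point of young I/R over young sham is -0.38 filled and 0.13 open.

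H2-K1 and H2-D1, the classical class I heavy chains of this strain, held most of the heavy chain RNA. H2-K1 had 137 and 105 CPM in the young libraries (sham, then I/R) and 344 and 217 CPM in the aged ones. H2-D1 had 92.5, 69.8, 154 and 162 CPM. H2-K1 was thus highest in aged sham alone, whereas the aged libraries lay close together for H2-D1, with a log2 ratio of 0.07 for aged I/R over aged sham (0.02 to 0.11) against -0.67 for H2-K1 (-0.70 to -0.63). Under the gene-wise scaling the H2-D1 ratio turned to -0.02 (-0.07 to 0.02). H2-K1 UMIs per H2-D1 UMI were 2.23 in aged sham (2.17 to 2.30), but 1.48 and 1.51 in the young libraries and 1.34 after I/R in the aged. The heavy chain genes are close copies of each other, so how reads were divided between them is uncertain, and this holds for every H2-K, H2-D, H2-Q and H2-T value.

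B2m, the light chain shared by all class I molecules, had 88.9 and 92.3 CPM in the young libraries and 267 and 143 CPM in the aged ones. The young libraries did not differ beyond counting error (log2 ratio 0.05, -0.02 to 0.13), though under the gene-wise scaling I/R stood above sham by 0.56 (0.49 to 0.64). In aged mice the I/R library was lower by 0.90 on the log2 scale (ratio -0.90, -0.94 to -0.86). B2m made up 20.8%, 28.1%, 27.4% and 20.01% of class I UMIs, so the light chain and the heavy chains did not keep 1 proportion over the libraries. The heavy chains alone summed to 338, 236, 705 and 572 CPM.

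Among the other heavy chains, H2-Q4, H2-Q6 and H2-Q7 of the Qa region were next in level. H2-Q6 had 31.5, 20.3, 84.4 and 50.5 CPM, the same order of libraries as H2-K1. H2-Q7, known as the gene of the Qa-2 antigen, had 17.1, 9.48, 41.3 and 41.2 CPM, and the interval between the aged libraries held 0 (log2 ratio -0.0034, -0.09 to 0.08), which under the gene-wise scaling it just did not (-0.09, -0.18 to -0.0051). H2-Q4 had 27.9, 15.2, 45.2 and 52.3 CPM and was highest in aged I/R.

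H2-T22 and H2-T23, nonclassical heavy chains, were also highest in aged I/R, as were H2-D1 and H2-Q4. H2-T22, whose product is a ligand of some gamma-delta T cell receptors, had 10.57 CPM in young sham and 4.99 CPM after I/R, and 11.8 and 20.9 CPM in the aged pair. H2-T23, the gene of Qa-1, which presents leader peptides to natural killer cell receptors, had 10.33, 4.46, 10.9 and 16.8 CPM. For both genes the sham libraries of the 2 ages did not differ beyond counting error (log2 ratios 0.17, -0.05 to 0.38, and 0.08, -0.14 to 0.30), and the I/R libraries lay on opposite sides of them. Aged sham lay above young sham in both with the gene-wise scaling, by 0.31 for H2-T22 (0.10 to 0.53) and 0.23 for H2-T23 (0.0076 to 0.45). H2-T24 had 6.73, 2.17, 6.77 and 4.36 CPM, lowest in young I/R as well but below sham in aged I/R too. These 3 genes overlap A930015D03Rik on the opposite strand, which had 94 UMIs in all, and whether counting used the strand is not given in the sources used here.

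H2-Q10, a heavy chain known as a secreted product of the liver, was the only member at least 2-fold higher after I/R in both ages. It had 0.81 CPM (21 UMIs) and 2.04 CPM (81 UMIs) in the young libraries, sham and I/R, and 1.23 CPM (51 UMIs) and 3.29 CPM (220 UMIs) in the aged. Its I/R library thus stood above sham by a log2 ratio of 1.33 at the young age (0.62 to 2.10) and 1.42 at the old (0.97 to 1.89). Of the H2-M genes, H2-M3, which presents formylated peptides, had 2.55, 1.64, 3.77 and 3.95 CPM, while H2-M2 (25 UMIs), H2-T3 (45 UMIs) and H2-M5 (50 UMIs) were too sparse to order the libraries. The 12 members under 20 UMIs were H2-Q1, H2-Q2, H2-M1, H2-M9, H2-M10.1 to H2-M10.6, H2-M11 and the class II gene H2-Eb2. H2-M10.2, H2-M10.3 and H2-M10.6 had no UMI, and the floor of 3 counts used for such genes is 0.116 CPM in young sham and 0.0449 CPM in aged I/R.

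**Figure D3:**
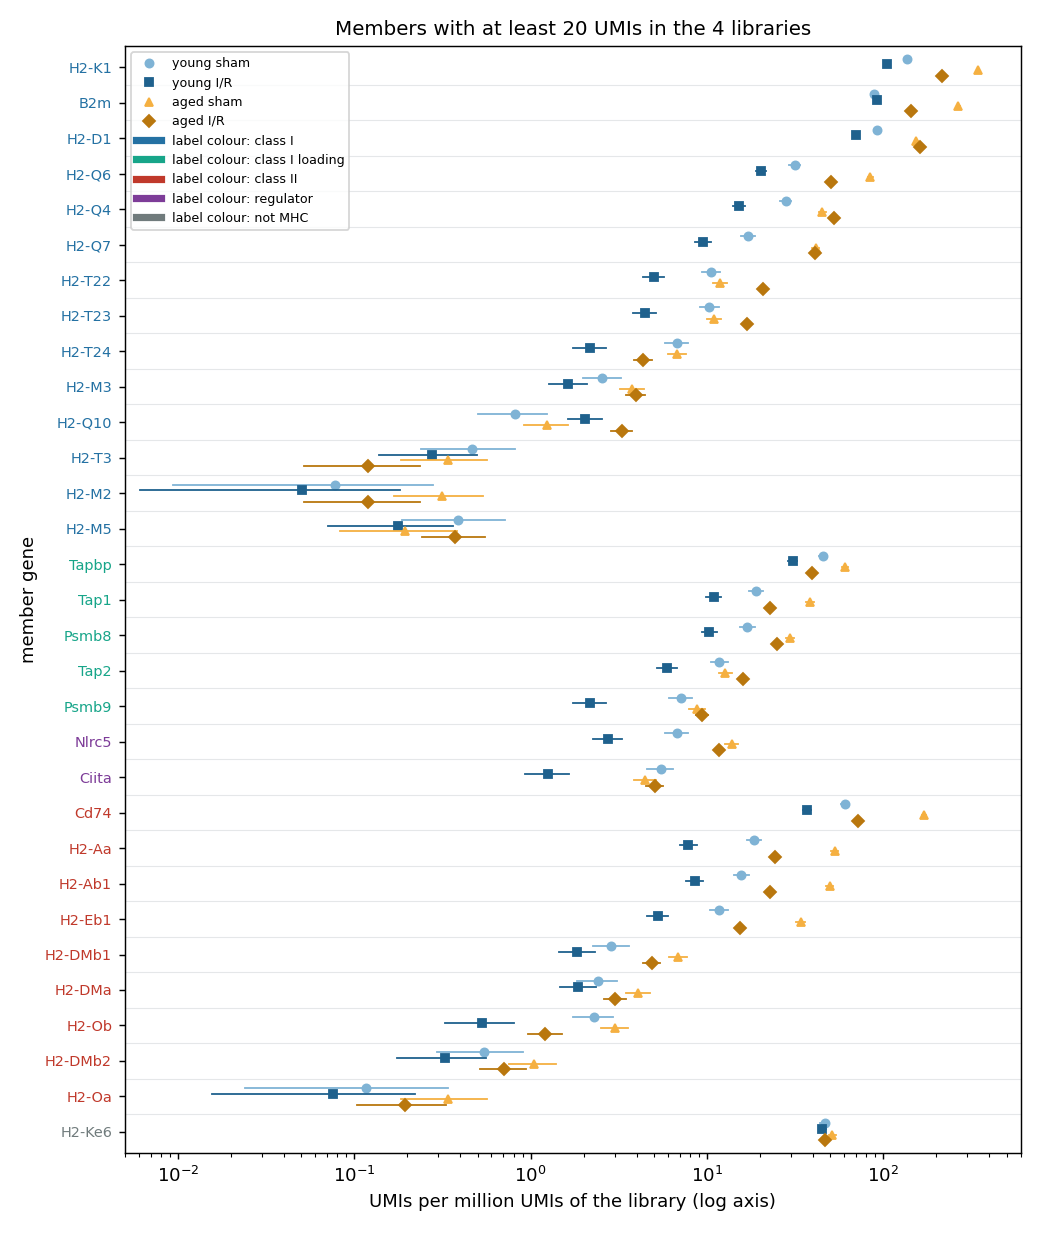
Level of the 31 members with at least 20 UMIs in each library, in CPM on a log axis, with exact 95% counting intervals as lines and members grouped by class through the color of their names. The square of young I/R is the leftmost mark in 28 of the 31 members, and the triangle of aged sham is the rightmost in each of the 9 class II members.

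In the peptide supply group, Tapbp was the most abundant, with 45.6, 30.7, 60.6 and 39.5 CPM. It overlaps Zbtb22 on the same strand, which had 1571 UMIs against 7534 of Tapbp. Tap1 had 18.9, 10.9, 38.4 and 22.7 CPM and Tap2, which forms the transporter with it, 11.8, 5.92, 12.7 and 16.0 CPM. The partners therefore differed in pattern, with 3.03 Tap1 UMIs per Tap2 UMI in aged sham (2.74 to 3.35) against 1.61 and 1.85 in the young libraries and 1.42 after I/R in the aged. Between the sham libraries Tap2 did not differ beyond counting error (log2 ratio 0.11, -0.10 to 0.32, but 0.26, 0.05 to 0.47, with the gene-wise scaling), whereas Tap1 was higher in aged by 1.02 (0.87 to 1.17).

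Psmb8 and Psmb9 encode immunoproteasome subunits that replace Psmb5 and Psmb6 of the standard proteasome. Psmb8 had 16.95, 10.31, 29.6 and 25.1 CPM and Psmb9 7.08, 2.17, 8.80 and 9.36 CPM. Relative to the subunit it replaces, Psmb8 stood at 0.200, 0.0935, 0.347 and 0.299 UMIs per Psmb5 UMI. For Psmb9 per Psmb6 the values were 0.0777, 0.0185, 0.0819 and 0.102. Both ratios were lowest in young I/R, where Psmb5 and Psmb6 were at their highest level of the 4 libraries (110.3 and 117 CPM). Tap1 and Psmb9 overlap on opposite strands, only at the start of each gene (chr17:34187553 to 34187764), whereas the libraries were 3′ libraries. Whether their counts share reads was not tested.

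The 3 abundant class II chain genes had 1 order of libraries. H2-Aa had 18.6 and 7.84 CPM in the young libraries and 52.9 and 24.3 CPM in the aged ones. H2-Ab1 had 15.6, 8.52, 49.6 and 22.7 CPM. H2-Eb1 had 11.7, 5.27, 33.9 and 15.4 CPM. In all 3 genes the order was aged sham, aged I/R, young sham, young I/R, with no overlap of neighboring intervals. H2-Aa UMIs per H2-Eb1 UMI were 1.59, 1.49, 1.56 and 1.58. Per H2-Ab1 UMI they were 1.19, 0.920, 1.07 and 1.07, lowest in young I/R, and in both pairs the intervals of the 4 libraries overlapped. For H2-Aa the I/R library was at -1.24 (young) and -1.12 (aged) relative to sham on the log2 scale, and the aged library at 1.51 (sham) and 1.63 (I/R) relative to the young. The alpha chain gene of the E molecule is known to be inactive in this strain, and H2-Eb2 had 16 UMIs in all.

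Cd74, the invariant chain, carried between 49.7% and 58.3% of class II UMIs. At 60.8, 36.8, 169.9 and 71.7 CPM it followed the same order of libraries as the chains, but the aged I/R library lay closer to young sham. After I/R it stood at -0.73 relative to young sham (-0.83 to -0.62) and at -1.24 relative to aged sham (-1.30 to -1.19) on the log2 scale. The aged minus young difference of Cd74 was -0.52 (-0.64 to -0.40). For the chains it was 0.12 in H2-Aa (-0.10 to 0.35), 0.0063 in H2-Eb1 (-0.27 to 0.29) and -0.25 in H2-Ab1 (-0.48 to -0.02). All these differences were below 0 with the gene-wise scaling, at -1.12 for Cd74, -0.48 for H2-Aa, -0.59 for H2-Eb1 and -0.85 for H2-Ab1. Without Cd74 the class II sum had a log2 ratio of -1.04 in young and -1.07 in aged.

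The peptide exchange genes lay below the 3 chain genes in every library. H2-DMb1 had 2.86, 1.84, 6.89 and 4.87 CPM, H2-DMa 2.40, 1.87, 4.06 and 3.01 CPM and H2-DMb2 0.54, 0.33, 1.04 and 0.70 CPM. H2-DMa overlaps the opposite-strand gene Brd2, which had 10214 UMIs against its 505. H2-Ob, the beta chain of H2-O and a gene known from B cells, differed from them with 2.28, 0.53, 3.00 and 1.21 CPM. Its log2 ratio of -2.11 for young I/R over young sham (-2.90 to -1.37) was the lowest of the class II genes, while its sham libraries did not differ beyond counting error (0.39, -0.07 to 0.87), which they did with the gene-wise scaling (0.54, 0.08 to 1.01). H2-Oa had 33 UMIs in all.

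The 2 coactivators did not share 1 pattern. Nlrc5, the class I coactivator, had 6.77, 2.75, 13.8 and 11.7 CPM. Ciita, the class II coactivator, had 5.46, 1.26, 4.47 and 5.05 CPM. Ciita was thus low in young I/R alone (log2 ratio to young sham -2.11, -2.61 to -1.64), and its sham libraries did not differ beyond counting error (-0.29, -0.61 to 0.04) although the class II sum was 2.80-fold higher in aged sham than in young sham. Ciita overlaps the opposite-strand gene Dexi, which had 3469 UMIs against 713, and Nlrc5 overlaps 9330175E14Rik with 173 UMIs. H2-Ke6, the member outside antigen presentation, had 46.6, 45.2, 51.5 and 46.5 CPM, the flattest profile among the abundant members.

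Counted over the 31 members, young I/R over young sham had 1 member at least 2-fold higher (H2-Q10) and 10 at least 2-fold lower, where 4.48% and 29.1% of all genes passed these limits. The 10 were H2-T22, H2-T23, H2-T24, the sparse H2-M5 (interval -2.76 to 0.41), Psmb9, H2-Aa, H2-Eb1, H2-Ob, Nlrc5 and Ciita. This count lies close to the background of that library pair, and with the gene-wise scaling it was 4 members beside 14.9% of all genes. The median member ratio was -0.74, beside -0.53 over all genes, and 2 members (H2-Q10 and B2m) were above 0, beside 24.5% of all genes. With the gene-wise scaling H2-K1, H2-D1, H2-DMa and H2-Ke6 joined them, which made 6 members beside 49.1%.

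For aged I/R over aged sham, 1 member was at least 2-fold higher and 7 were at least 2-fold lower, where 6.62% and 3.71% of all genes passed. Of the 7, H2-Aa, H2-Ab1, H2-Eb1, Cd74 and H2-Ob are class II genes, and the sparse H2-T3 and H2-M2 are class I. All 9 class II genes had ratios below 0, with a median of -1.12, beside medians of 0.03 in the 14 class I genes and 0.09 over all genes. Class I was split, with 7 genes above and 7 below 0, where 57% of all genes were above. The split was 5 above and 9 below with the gene-wise scaling, with a median of -0.06, where 49.6% of all genes were above.

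For aged sham over young sham, 13 members were at least 2-fold higher and 1 was lower (H2-M5, on 18 UMIs in the 2 libraries), where 5.57% and 9.04% of all genes passed. The 13 were H2-K1, H2-Q6, H2-Q7, H2-M2, B2m, Tap1, Nlrc5, H2-Aa, H2-Ab1, H2-Eb1, Cd74, H2-DMb1 and H2-Oa. Of these, H2-M2 (13 and 2 UMIs in aged and young sham) and H2-Oa (14 and 3 UMIs) were sparse. Scaled to total UMIs, the intervals of both held 0. The median was 1.48 in class II, 0.65 in class I and -0.14 over all genes. With the gene-wise scaling 14 members were at least 2-fold higher in aged sham and 0 lower, beside 1251 and 1203 of 17697 genes. Between the I/R libraries 24 members were at least 2-fold higher in aged and 1 was lower (the sparse H2-T3), where 22.6% and 2.13% of all genes passed. With the gene-wise scaling the 24 became 9 members beside 11.3% of all genes.

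Over the 4 libraries, aged sham held the highest value of 20 of the 31 members, and of 22.5% of all genes. It did so in 9 of 9 class II genes and 6 of 14 class I genes. Young I/R held the lowest value of 28 of the 31 members, but also of 61.1% of all genes. With the gene-wise scaling aged sham was highest in 22 members (20% of all genes), the 9 class II genes and 8 class I genes among them. Young I/R was then lowest in 22 (32% of all genes).

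**Figure D4:**
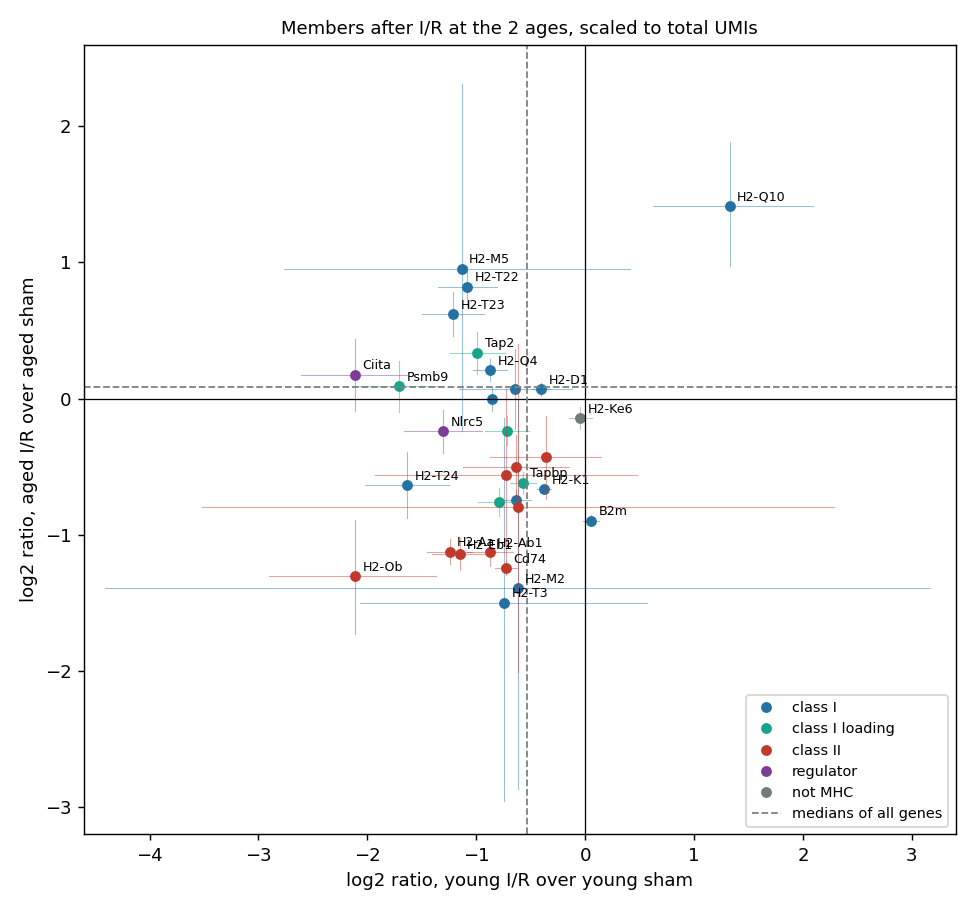
Log2 ratio of I/R over sham for each of the 31 members in young (horizontal) and aged mice (vertical), scaled to total UMIs, with exact 95% counting intervals as thin lines and medians of all genes as dashed lines. The class II chains and Cd74 sit at the lower left, with H2-Aa at -1.24 and -1.12, H2-Q10 is alone at the upper right, and H2-T22, H2-T23, Tap2 and H2-Q4 lie at the upper left.

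The I/R ratios of the 2 ages were then set against each other. For the class II sum the aged ratio was lower than the young ratio by 0.29 on the log2 scale (difference -0.29, -0.38 to -0.21), and for class I the difference was -0.06 (-0.10 to -0.02). Under the gene-wise scaling these became -0.89 and -0.66, with the same sign. Scaled to total UMIs, the class II difference without Cd74 was -0.03 (-0.16 to 0.10). For the class I heavy chains without B2m it was 0.22 (0.17 to 0.26), the opposite sign of the class I sum. With the gene-wise scaling these were -0.63 and -0.38. Among single members, 9 of 31 had an aged ratio at least 2-fold above the young ratio, where 35.1% of all genes did. They were H2-Q4, H2-T22, H2-T23, H2-T24, the sparse H2-M5, Tap2, Psmb9, Nlrc5 and Ciita, of which none is a class II chain. No member was at least 2-fold below, where 5.58% of all genes were. The share of members was thus no higher than that of genes in general, whose median difference was 0.61. With the gene-wise scaling 5 members were at least 2-fold above (H2-T22, H2-T23, H2-M5, Psmb9 and Ciita) beside 18.3% of all genes, and 4 at least 2-fold below (B2m, Cd74 and the sparse H2-T3 and H2-M2) beside 15.4%.

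Some genes outside the list had nearly the profile of the class II sum. Likeness was measured as the range, over the 4 libraries, of the log2 distance between a gene's CPM and the class II sum, among 13201 genes with at least 200 UMIs. The 5 nearest genes outside the list were Igtp (range 0.27), Ptn (0.30), Ifi47 (0.35), Irf7 (0.37) and Zbp1 (0.37). The members H2-Ab1 (0.22), Cd74 (0.23) and H2-Eb1 (0.35) lay in the same region of the ranking, but they are part of the sum, so their closeness is partly built in. H2-Aa (0.44), H2-DMb1 (0.66), H2-DMa (1.23) and H2-Ob (1.24), also part of the sum, lay farther out. Members outside the sum lay near it as well, since H2-Q6 (0.42), Tap1 (0.54) and H2-K1 (0.64) were nearer than H2-DMb1. Igtp and Ifi47 are interferon-inducible GTPases, Irf7 is an interferon regulatory factor and Zbp1 a nucleic acid sensor. This description leaves out Ptn, which was nearer than Ifi47, Irf7 and Zbp1, and interferon genes among the near ones were not counted. Igtp had 6.85, 4.49, 23.1 and 9.72 CPM. The profiles rest on 4 libraries, and genes were not ranked by any test.

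Of 20 interferon-induced genes on a list, 18 were above young sham in the aged sham library (as were 39.5% of all genes), 4 of them at least 2-fold (5.57% of all genes), and their sum was 469, 226, 688 and 463 CPM. After I/R 10 of the 20 were at least 2-fold below sham in young mice and 4 in aged mice, beside 29.1% and 3.71% of all genes. With the gene-wise scaling the young count was 3, beside 14.9%, and the aged count 5, beside 792 of 17699 genes. Between the sham libraries 6 were then at least 2-fold higher in aged, beside 1251 of 17697 genes. Scaled to total UMIs, their sum had the direction of the class I and class II sums in each of the 4 comparisons, and its part in those values was not tested.

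Other genes of the pathway, 26 with at least 20 UMIs on a list of 28, were counted in the same way. None was at least 2-fold higher or lower for aged I/R over aged sham or for aged sham over young sham, though with the gene-wise scaling 1 was higher in the latter. For young I/R over young sham Tapbpl (a tapasin relative), Cd1d1 (a lipid-presenting molecule) and Rfx5 (a factor of the X box complex) were among the 4 at least 2-fold lower, beside 29.1% of all genes, and none was higher. The gene-wise scaling left 0 of these 4 and put 2 genes at least 2-fold higher. For aged I/R over young I/R 6 were at least 2-fold higher, beside 22.6% of all genes, and none lower. The 6 became 3 with the gene-wise scaling, beside 11.3% of all genes. Among general folding proteins of the endoplasmic reticulum, Canx had 172, 217, 249 and 258 CPM and Calr 123, 138, 147 and 195 CPM. Pdia3 had 60.2, 82.5, 96.8 and 90.5 CPM. In CPM all of them were above sham after I/R in young mice, unlike the class I and class II sums. They were higher in aged sham than in young sham, like those sums. After I/R in aged mice Calr was above sham (log2 ratio 0.41, 0.36 to 0.45) and Pdia3 below it (-0.10, -0.16 to -0.04). Canx was at 0.05 (0.02 to 0.09), to which the gene-wise scaling adds -0.09. Ctsl (59.3, 99.6, 95.5 and 109 CPM) and Lgmn (21.0, 30.4, 29.8 and 26.9 CPM), proteases of the class II pathway, were above sham after I/R in young mice, unlike the class II genes themselves. In aged mice Ctsl was above sham (log2 ratio 0.19, 0.13 to 0.25) and Lgmn below it (-0.15, -0.25 to -0.04).

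Markers of the cells known to carry class II differed between libraries too. The 14 macrophage markers, all above 0 in each library, summed to 379, 271, 453 and 486 CPM. Class II UMIs per macrophage marker UMI were therefore 0.711 in aged sham but 0.303 and 0.232 in the young libraries and 0.296 after I/R in the aged. The markers did not move together, so this ratio depends on which of them are summed. For aged I/R over aged sham 8 of the 14 were higher, beside 57% of all genes, with Cd163 at 1.17 and Cx3cr1 at -1.43 on the log2 scale. The 8 dendritic cell markers summed to 28.2, 13.5, 32.7 and 24.9 CPM, with 1 of them at 0 in young sham. Most of this sum was a single gene, Zbtb46, at 26.0, 12.3, 29.3 and 22.1 CPM, so it says little about the other dendritic markers. The 8 B cell markers summed to 32.3, 4.34, 30.7 and 18.7 CPM with none at 0, and after I/R in young mice all 8 were at least 2-fold below sham, beside 29.1% of all genes, as they were with the gene-wise scaling. In aged mice 4 of the 8 were at least 2-fold below sham, beside 3.71% of all genes. With the gene-wise scaling 4 were as well, beside 792 of 17699 genes. The 10 T and NK cell markers summed to 2.86, 1.84, 8.46 and 6.77 CPM, and the 4 neutrophil markers to 13.3, 91.6, 22.8 and 89.1 CPM. The 10 endothelial markers lay between 1257 and 1651 CPM. The part of these cells in the member values was not tested.

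Barcodes were then grouped by their own markers. Barcodes with UMIs of at least 2 different macrophage markers numbered 669, 542, 1576 and 4399. In them class II had 219 CPM (165 to 286), 95.9 CPM (62.0 to 142), 419 CPM (376 to 465) and 167 CPM (155 to 181), which is 1.91, 1.52, 1.30 and 1.16 times the level over all barcodes of the library. Class I in the same barcodes was 1.16, 1.05, 1.03 and 1.05 times that level. Class II thus stood above the library level in each library, but in young I/R this rested on 25 class II UMIs. There the interval reached down to the library level of 63.1 CPM, and with at least 3 different markers class II was at 0 CPM. These barcodes held only between 0.999% and 7.12% of class II UMIs.

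The rest of the RNA was spread almost evenly. Barcodes with no UMI of any non-myocyte marker had class II at 108, 64.1, 316 and 133 CPM and class I at 413, 330.4, 961 and 689 CPM, nearly the values of the whole libraries. In barcodes with 2 endothelial markers class I stood at 466, 346, 964 and 749 CPM and class II at 118, 58.3, 320.4 and 144 CPM. The comparisons between libraries came out alike among the barcodes with no marker, where the class II log2 ratios to sham were -0.75 (young) and -1.25 (aged), and those of aged to young were 1.55 in sham and 1.05 after I/R. Their median depth was 221 to 522 UMIs, beside 321 to 842 in the macrophage-positive barcodes.

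**Figure D5:**
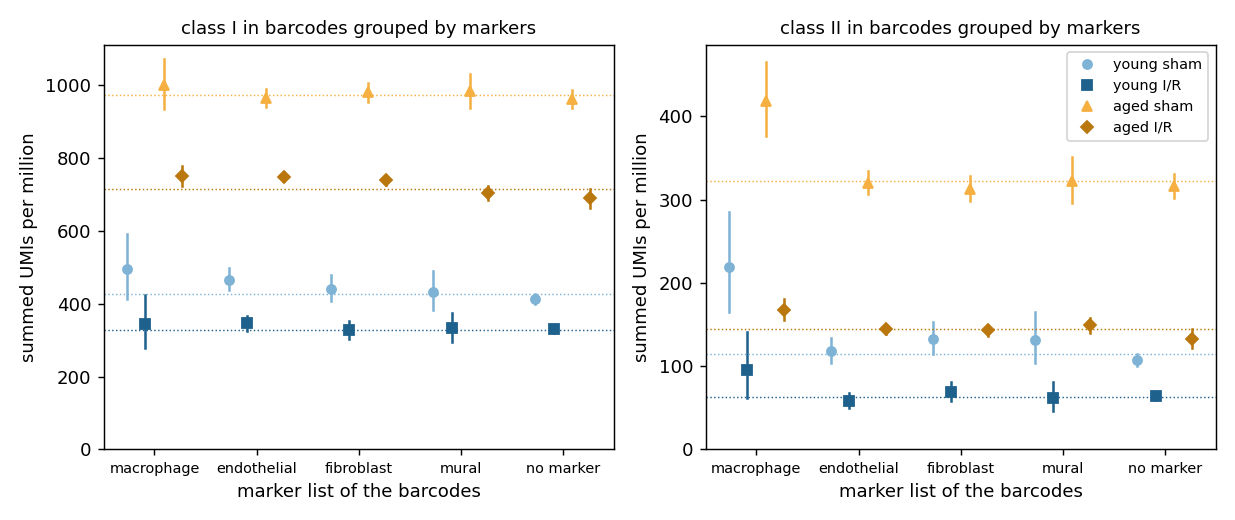
Summed class I (left) and class II (right) level in barcodes with at least 2 different markers of a cell type, or with no non-myocyte marker, in CPM with exact 95% counting intervals. Dotted lines are the levels over all barcodes of each library. Class II lies above its dotted line in the macrophage set of each library (219 against 115 in young sham), though in young I/R its interval reaches the line. The other sets stay close to the lines.

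Single barcodes held few member UMIs. A class II UMI was found in 3.11%, 2.39%, 12.1% and 9.79% of barcodes, and between 83.6% and 96.4% of class II UMIs were the only one in their barcode. The highest number of class II UMIs in a barcode was 4, 7, 6 and 7. Genes that were not on the marker lists, chosen after the values above had been seen, gave the same picture. Ctss, Tyrobp, Fcer1g and Laptm5, known from macrophages and other leukocytes, together were 2.20, 1.08, 1.497 and 1.13 times the library level in the macrophage-positive barcodes, and Cav1, Ptprb and Vwf were 1.15, 1.08, 1.01 and 1.03 times the library level in the endothelial-positive ones. The marker sets therefore separated cell types only weakly, and member RNA was not assigned to a cell type.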

How the data were processed

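The deposited files were 10x Genomics matrices of raw UMI counts per gene and barcode, which the authors made with Cell Ranger (version 6.0.2 in the submitters' processing notes) on the mm10 reference, with no normalization. Whether counting used introns or the strand is not given in the sources used here. The authors' Seurat clusters were not used. UMIs were summed over all barcodes of each library and divided by the library total (CPM). Ratios carry exact conditional binomial intervals, levels exact Poisson intervals and differences of ratios normal intervals on the log counts (Python 3.11.15, scipy 1.17.1, checked on simulated data). With 1 library per condition no test was run and 2-fold was used as the limit. Genes needed 20 UMIs over the 4 libraries. Every such member could be named, with a fixed list of pathway genes and the 5 genes nearest to class II. The second scaling used the median gene-wise ratio over genes with UMIs in all 4 libraries. Positions were matched by Ensembl ID to GENCODE M21 (GRCm38) for all 43 members, 39 of them on chromosome 17. The members, lists and limits were chosen with earlier results of these data known. Doublets were not removed. The sequence of Cd74 was not searched here. The values of 1 pathway gene are not reported here.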

Additional observations from a re-analysis of the deposited data

Results flagged for a closer look

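For 4 members the I/R library lay below sham in young mice and above sham in aged mice, with both intervals off 0 and the same signs under both scalings. With 1 library per condition the difference was not tested. The aged minus young difference of the log2 ratios was 1.90 for H2-T22 (young -1.08, aged 0.82), 1.83 for H2-T23 (-1.21 and 0.62), 1.33 for Tap2 (-0.99 and 0.34) and 1.08 for H2-Q4 (-0.87 and 0.21). Under the gene-wise scaling the young and aged values were -0.57 and 0.73 for H2-T22, -0.70 and 0.53 for H2-T23, -0.48 and 0.25 for Tap2, and -0.36 and 0.12 for H2-Q4. The median difference over all genes was 0.61, and 35.1% of all genes had a difference of at least 1. The share of all genes that met the rule for the 4 members is not given here. After I/R 24.5% of all genes lay above sham in young mice and 57% in aged mice, so opposite directions were not particular to members. With the gene-wise scaling these shares were 49.1% and 49.6%.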

How the results depend on the processing

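No paired analysis was possible because each condition had 1 library, and for the same reason no replicate could be left out. Depth limits H2-T3, H2-M2, H2-M5 and H2-Oa, which had 25 to 50 UMIs in all, and no interval covers variation between animals. Where 4 log2 ratios follow each other, they are I/R over sham (young, then aged) and then aged over young (sham, then I/R), and the cause of a shift was not tested. With the gene-wise scaling the class I log2 ratios were 0.13 (reversed in direction), -0.53, 1.34 and 0.67, and those of class II -0.36, -1.25, 1.63 and 0.74. The aged minus young differences became -0.66 in class I and -0.89 in class II. Members at least 2-fold lower in young I/R were then 4, those higher in aged I/R than young I/R 9, and those lower in aged sham 0. With totals that left out Gm42418, Malat1 and the mitochondrial genes (28.1% to 35.7% of UMIs), class I stood at -0.23, -0.53, 1.26 and 0.96 and class II at -0.72, -1.25, 1.56 and 1.03, with differences between ages of -0.30 and -0.53 and 0 members lower in aged sham. In barcodes with at least 200 detected genes class I was -0.22 for young I/R and 1.33 between sham libraries, its difference between ages -0.21, and the young sham log2 ratio of class II over class I -1.79. There 2 members were higher in aged I/R than aged sham and 0 lower in aged sham. Without B2m class I was -0.52, -0.30, 1.06 and 1.28, and class II over class I was -1.56, -1.90, -1.13 and -1.99 (young sham and I/R, then aged sham and I/R). Without Cd74 class II was -1.04, -1.07 and, between I/R libraries, 1.46, and class II over class I -2.98, -3.64, -2.68 and -3.30. At 1.5-fold, 24 members were lower in young I/R, and 4 higher and 14 lower in aged I/R, where 8405, 3108 and 1876 genes of the 17699 with at least 20 UMIs passed. A minimum of 100 UMIs left 0 members lower in aged sham and 0 lower in aged I/R than young I/R, and without a minimum the latter were 2. With at least 3 different markers, macrophage-positive barcodes had class II at 403, 0, 627 and 192 CPM in that order of libraries, and endothelial-positive ones class I at 1003 CPM in aged sham and 783 CPM in aged I/R. Leaving out barcodes found in more than 1 library moved no log2 ratio beyond its counting interval, and counts of members past 2-fold became 12 lower in young I/R, 8 lower in aged I/R and 20 higher in aged I/R than young I/R. In the main setting 29.1%, 3.71% and 22.6% of all genes passed these limits. Shares of all genes under the changed totals, barcode sets and UMI minimums are not given here, so these counts cannot be set against their own background.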
